A study of Homo sapiens with 6 samples.

Results

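The class I basic helix-loop-helix (bHLH) genes, known as E-protein genes, and the genes of their ID antagonists were examined in BT549 cells treated with AS1842856. They are 7 of the 58735 genes in the count table. The 3 E-protein genes are TCF3 (encoding the E12 and E47 proteins), TCF4 (encoding E2-2) and TCF12 (encoding HEB), and the 4 ID genes are ID1, ID2, ID3 and ID4. They were taken by name as members of a gene family, in a choice made with earlier results of these data known. BT549 is an established human breast cancer cell line of the basal-like type that lacks hormone receptors. AS1842856 is known as an inhibitor of the forkhead transcription factor FOXO1 that keeps it from DNA. The study proposes that the compound modulates FOXO1 and does not only inhibit it. RNA-Seq was done on 3 libraries of cells given DMSO, the solvent, and 3 of cells given AS1842856 at 200 nM by the sample labels, all for 48 h. The text of the study gives a higher concentration, and the dose was not resolved here. All 6 libraries came from a single cell line with no genetic change between groups, and the study calls the 3 libraries of a group biological replicates.

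E-proteins bind DNA as dimers at the E-box, a short palindromic element written CANNTG. They pair with each other or with tissue-restricted class II bHLH proteins such as TWIST1. ID proteins keep the dimerization helices but lack the basic region that touches DNA, so a dimer of an E-protein with an ID protein does not bind. ID genes are known as targets of BMP-SMAD signalling, and in breast cancer ID1 and ID3 have been studied for their part in self-renewal and metastasis. TCF4 is named here for E2-2 and is not TCF7L2, the WNT effector that carries the same name as an alias.

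Every one of the 7 genes had enough counts to be tested, and all 7 were called different between the groups at an adjusted p under 0.05 (edgeR's quasi-likelihood test with Benjamini-Hochberg adjustment over all 14338 genes tested). The 3 E-protein genes and ID4 rose, and ID1, ID2 and ID3 fell. This contrast moved much of the transcriptome, and 56.0% of all genes tested were called, 27.6% higher and 28.4% lower. The DMSO and AS1842856 libraries did not overlap for any of the 7 genes, as was also the case for 59.9% of all genes tested. The count of called genes in the family is therefore to be read against that background. The median log2 fold change was 0.26 over the 7 genes and 0.0030 over all genes tested. With 4 genes higher and 3 lower, the median of the 7 is the value of TCF12 and does not describe a shared shift.

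Library totals ran from 15289500 to 22981832 counts and TMM factors from 0.995 to 1.01. Levels below are given as TMM-normalised CPM (counts scaled to a common library size) when libraries are compared for a gene, and as FPKM, which is also divided by gene length, when genes are compared with each other. The 7 genes held between 826 and 13759 raw counts in a library. The 4 mesenchymal or basal markers VIM, CD44, ZEB1 and AXL all had counts, with a sum between 2650 and 2773 CPM in DMSO and between 1910 and 1953 CPM after treatment. They did not move together, since VIM (−0.34), CD44 (−0.45) and AXL (−1.65, from 423 to 135 CPM) fell on the log2 scale while ZEB1 rose (0.50, from 69.7 to 98.5 CPM, adjusted p = 5.76e-20). All 5 luminal and receptor genes had at least 1 count, with a sum between 95.9 and 104 CPM in DMSO and between 84.2 and 91.0 CPM after treatment. Of these, the hormone receptor genes ESR1 and PGR did not pass the filter, with at most 1 and 4 counts in a library. Most of the sum came from GATA3, which rose from 50.9 to 61.7 CPM (adjusted p = 3.21e-06), and ERBB2, which fell from 46.7 to 25.0 CPM (adjusted p = 2.92e-29). FOXA1 was at 1.43 and 0.673 CPM (adjusted p = 0.00755), a call that was lost under DESeq2 (adjusted p = 0.0689). It was also lost without DMSO replicate B (adjusted p = 0.0649) or AS1842856 replicate B (adjusted p = 0.087). Of 6 markers of other cell types (PTPRC, CD3E, CD79A, PECAM1, CDH5 and EPCAM), 4 had at least 1 count and CD3E and CDH5 were at 0. PECAM1 had 1 count in a single library. That list summed to between 1.24 and 1.83 CPM in DMSO and between 2.76 and 3.63 CPM after treatment, mostly from PTPRC, a leukocyte gene that rose by 1.48 on the log2 scale (adjusted p = 4.99e-07). Its part in the results was not tested. A lower level of an mRNA in bulk cells cannot be told apart from fewer cells that make it.

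The start-site windows of the ID genes and 1 window of TCF4 are shown because ID1, ID2 and ID3 fell while ID4 and TCF4 rose, and because this TCF4 window holds a forkhead motif. RefSeq (GRCh38.p14) gave 20 windows for the 7 genes, each of 250 bases before to 50 bases after a start site, of which 10 belong to TCF4, 5 to TCF12 and 1 to each other gene. Sequences run 5′ to 3′ on the strand of the gene. Capitals mark TGTTTAC (the core bound by FOXO factors), CANNTG (the E-box) and TATAAA, an element known to position transcription.

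ID1, chr20:31605039-31605338, + strand: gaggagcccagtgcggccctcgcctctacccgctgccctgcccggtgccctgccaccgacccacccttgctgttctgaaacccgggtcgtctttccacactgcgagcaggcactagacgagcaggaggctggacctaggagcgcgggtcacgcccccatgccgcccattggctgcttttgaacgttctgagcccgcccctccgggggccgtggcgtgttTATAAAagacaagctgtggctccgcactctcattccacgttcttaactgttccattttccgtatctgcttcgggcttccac
ID2, chr2:8681806-8682105, + strand: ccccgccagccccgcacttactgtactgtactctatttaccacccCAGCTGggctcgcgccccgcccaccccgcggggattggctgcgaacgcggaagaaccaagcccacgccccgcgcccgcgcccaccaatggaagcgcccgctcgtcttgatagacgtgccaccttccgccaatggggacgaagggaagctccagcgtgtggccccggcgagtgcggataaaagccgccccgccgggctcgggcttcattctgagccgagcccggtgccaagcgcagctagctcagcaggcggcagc
ID3, chr1:23559452-23559751, − strand: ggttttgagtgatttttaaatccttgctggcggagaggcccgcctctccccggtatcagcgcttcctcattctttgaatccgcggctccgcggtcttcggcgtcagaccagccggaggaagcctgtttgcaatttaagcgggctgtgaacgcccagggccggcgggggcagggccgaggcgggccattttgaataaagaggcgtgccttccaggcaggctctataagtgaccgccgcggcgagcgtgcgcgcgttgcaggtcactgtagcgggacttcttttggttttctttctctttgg
ID4, chr6:19837120-19837419, + strand: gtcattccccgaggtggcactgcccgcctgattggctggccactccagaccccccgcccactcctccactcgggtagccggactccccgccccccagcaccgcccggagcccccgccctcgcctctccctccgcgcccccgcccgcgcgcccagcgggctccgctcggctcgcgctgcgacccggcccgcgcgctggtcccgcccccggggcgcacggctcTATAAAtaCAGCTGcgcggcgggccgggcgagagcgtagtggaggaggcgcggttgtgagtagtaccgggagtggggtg
TCF4 (window 2), chr18:55589762-55590061, − strand: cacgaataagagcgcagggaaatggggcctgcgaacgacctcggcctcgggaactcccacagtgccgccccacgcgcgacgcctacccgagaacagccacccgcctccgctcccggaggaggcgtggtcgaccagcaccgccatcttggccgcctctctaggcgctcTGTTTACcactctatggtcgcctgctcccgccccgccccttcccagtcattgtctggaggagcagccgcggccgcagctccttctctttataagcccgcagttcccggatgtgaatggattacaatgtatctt

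Positions are counted from the start site, with negative values before it. TGTTTAC, searched on both strands, was found in 2 of the 20 windows, both of TCF4, at −106 in its window 1 and at −83 in its window 2. It occurred in 3.42% of all 35116 RefSeq windows of this length. The E-box was present in 11 of the 20 windows and in 68.7% of all windows. ID2 and ID4 each held the E-box form CAGCTG, at −205 and −21, which 17.9% of all windows hold. TATAAA on the sense strand lay at −31 in ID1 and at −29 in both ID4 and window 3 of TCF4, against 7.33% of all windows. The ID3 window held none of these motifs, and the element GGCGCC, known to be bound by BMP-responsive SMAD proteins and present in 19.2% of all windows, was found only in window 3 of TCF12, at −124 and −96. The form CAGGTG, held by 20.6% of all windows, was in none of the 20. A match is a description of the letters in a window and was not tested for binding.

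Among the E-protein genes, TCF4 had the highest fold change, and TCF3 and TCF12 rose by smaller amounts. The differences between genes were not tested. TCF4 (ENSG00000196628, chr18:55222331-55664787, − strand) encodes E2-2, an E-protein known for its role in plasmacytoid dendritic cells and in neurons. It was at 52.5, 53.8 and 53.5 CPM in the DMSO libraries and at 94.9, 88.6 and 91.1 CPM in the AS1842856 libraries. The lowest treated library thus lay well above the highest DMSO library. The means were 53.3 ± 0.700 and 91.5 ± 3.15 CPM (SD, n = 3 each), a rise of 71.7%. The log2 fold change was 0.78 (SE 0.05, 95% interval 0.68 to 0.88, adjusted p = 2.27e-36), and 84.8% of genes tested had a smaller absolute change.

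TCF3 (ENSG00000071564, chr19:1609290-1652605, − strand) gives rise by splicing to E12 and E47, E-proteins best known from lymphocyte development, which gene counts cannot separate. It was at 262 (replicate A), 234 (B) and 245 (C) CPM in DMSO and at 298, 297 and 306 CPM after treatment. DMSO replicate A was the highest control and still lay below every treated library. The mean went from 247 ± 14.1 to 300.3 ± 5.17 CPM, a rise of 21.4% and a log2 fold change of 0.28 (SE 0.04, 95% interval 0.21 to 0.35, adjusted p = 3.66e-12). TCF12 (ENSG00000140262, chr15:56918623-57299281, + strand) encodes HEB, a widely made E-protein with roles in muscle and thymus. Its level was 54.8, 59.4 and 52.6 CPM in DMSO and 67.2, 66.3 and 66.1 CPM after treatment. The treated libraries were close together and the DMSO libraries more spread. The log2 fold change was 0.26 (SE 0.05, 95% interval 0.16 to 0.37, adjusted p = 7.08e-06), a rise of 19.9% from 55.6 ± 3.46 to 66.5 ± 0.591 CPM. TCF3 and TCF12 lay near the middle of all genes, with 52.2% and 49.8% of genes showing a smaller absolute change.

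TCF7L2, measured to keep the names apart, was at 20.5 ± 1.78 CPM in DMSO and 20.3 ± 1.15 CPM after treatment. Its log2 fold change of −0.02 did not pass the test (SE 0.09, 95% interval −0.19 to 0.15, adjusted p = 0.868), and its sign turned when DMSO replicate C or AS1842856 replicate C was left out.

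**Figure D1:**
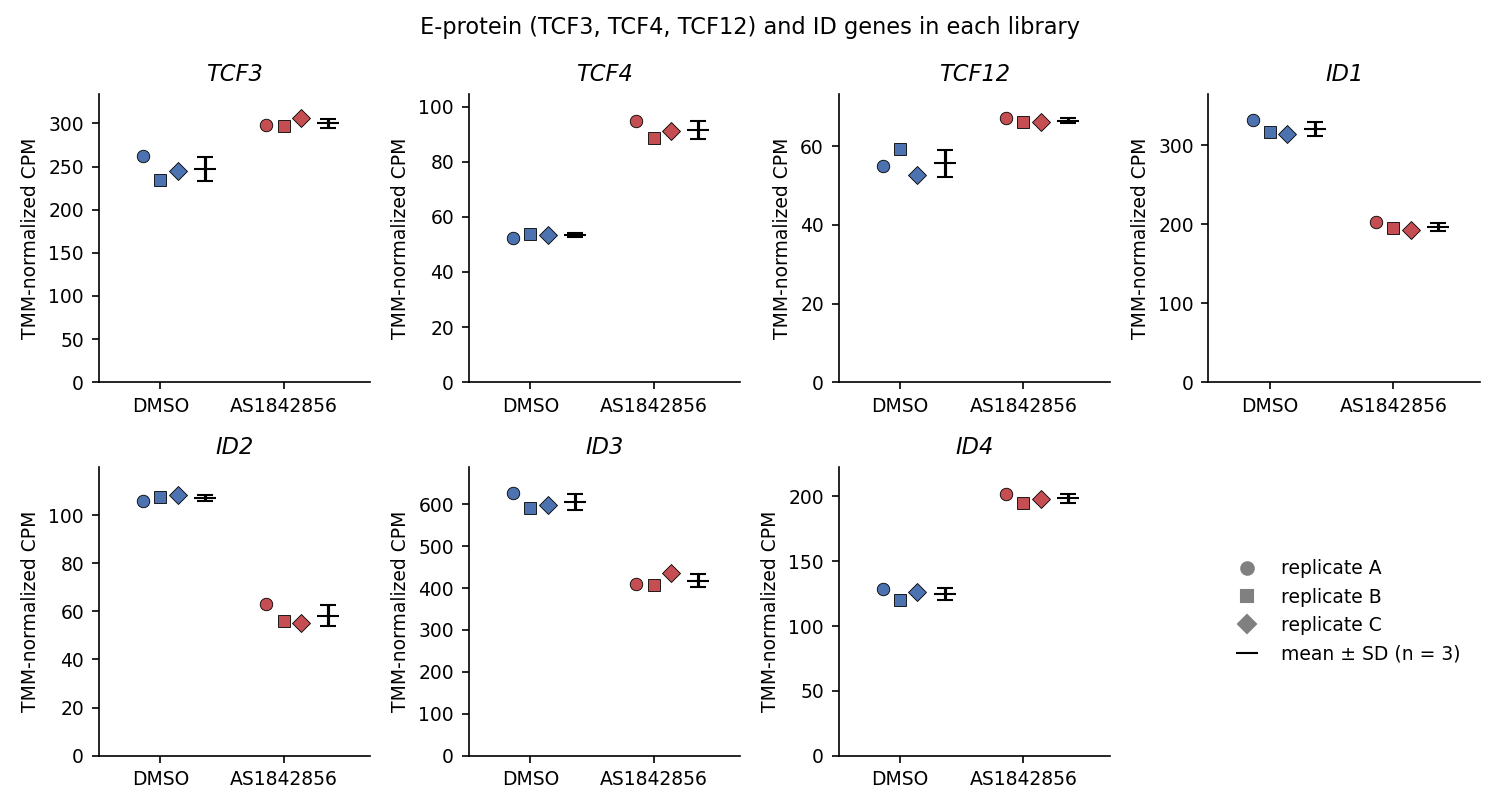
TMM-normalised CPM (y axis, from 0) of each E-protein and ID gene in the DMSO (blue) and AS1842856 (red) libraries, with the replicate shown by the marker shape and the group mean ± SD in black beside the points. The groups do not overlap in any panel, with ID1, ID2 and ID3 lower and the other 4 genes higher after treatment.

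Of the ID genes, ID2 had the lowest fold change. ID2 (ENSG00000115738, chr2:8678845-8684453, + strand) encodes an ID protein that also binds the unphosphorylated retinoblastoma protein. Its DMSO libraries held 106, 108 and 108 CPM and its AS1842856 libraries 63.1, 56.1 and 55.1 CPM. Treated replicate A was the highest of its group and still far below the DMSO libraries. The mean fell from 107 ± 1.17 to 58.1 ± 4.34 CPM, a change of −45.9%, with a log2 fold change of −0.89 (SE 0.05, 95% interval −0.98 to −0.79, adjusted p = 1.5e-45). ID2-AS1, an antisense gene that shares 38 exon bases with ID2, had 80 counts over the 6 libraries against 9298 of ID2.

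ID1 (ENSG00000125968, chr20:31605283-31606515, + strand) encodes an ID protein linked to proliferation and to endothelial and tumour self-renewal. It was at 332, 317 and 314 CPM in DMSO and at 203, 195 and 192 CPM after treatment. Replicates lay close together, with a coefficient of variation of 2.95% in DMSO and 2.76% after treatment. The means were 320.9 ± 9.47 and 196.8 ± 5.44 CPM, a change of −38.7%, and the log2 fold change was −0.71 (SE 0.04, 95% interval −0.78 to −0.63, adjusted p = 4.39e-49). ID3 (ENSG00000117318, chr1:23557918-23559794, − strand), a close relative often expressed together with ID1, had the highest level of the 7 genes. It was at 627, 591 and 597 CPM in DMSO and at 410.5, 406 and 436 CPM after treatment. Its mean fell from 605 ± 18.9 to 417.5 ± 16.0 CPM, a change of −31.0%, with a log2 fold change of −0.54 (SE 0.03, 95% interval −0.60 to −0.47, adjusted p = 3.28e-37).

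ID4 moved the other way. ID4 (ENSG00000172201, chr6:19837386-19840684, + strand) encodes an ID protein studied in basal-like breast tumours and in mammary progenitor cells. It was at 129, 120 and 126 CPM in DMSO and at 202, 195 and 198 CPM after treatment, with every treated library above every DMSO library. The mean rose by 58.8%, from 125 ± 4.63 to 198.5 ± 3.43 CPM, and the log2 fold change was 0.67 (SE 0.04, 95% interval 0.59 to 0.75, adjusted p = 4.48e-41). An antisense gene that lies over ID4 without sharing exon bases, AL022068.1, had 240 counts against 18367 of ID4. Absolute changes smaller than those of ID1, ID2, ID3 and ID4 were seen in 82.6%, 87.3%, 74.9% and 81.2% of genes tested.

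**Figure D2:**
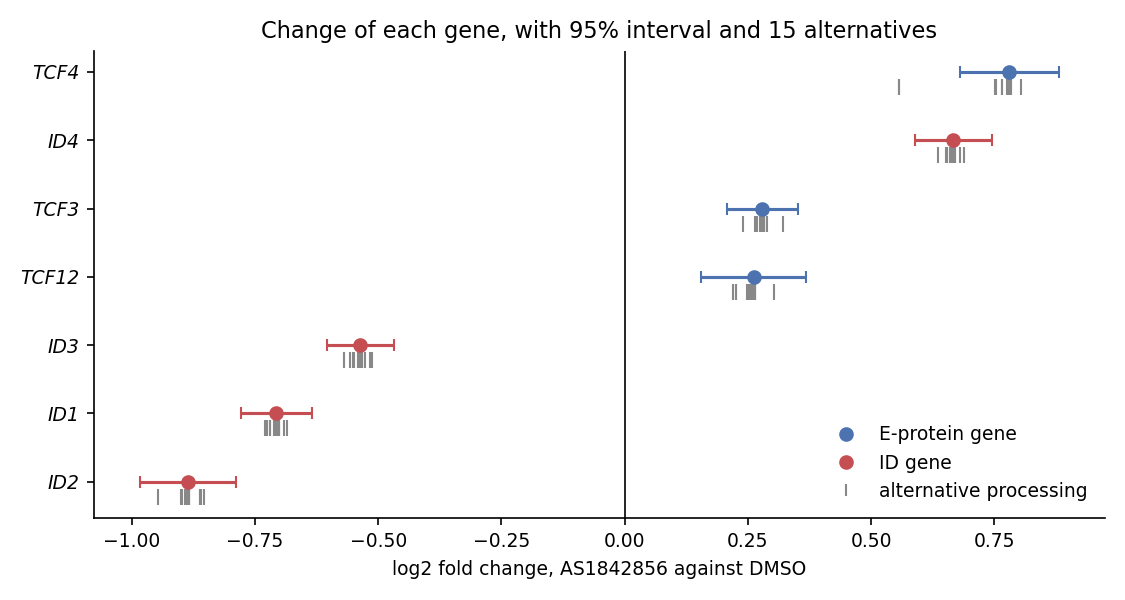
Log2 fold change (x axis, AS1842856 against DMSO) of each gene as a point with its 95% interval, blue for E-protein genes and red for ID genes, with grey ticks for the 15 alternative fits. All ticks of a gene lie on its own side of 0, from −0.95 for ID2 to 0.80 for TCF4.

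Levels of different genes were compared in FPKM. In DMSO the order was ID3 at 335 ± 10.9, ID1 at 259 ± 7.89, ID4 at 52.9 ± 2.04, ID2 at 48.3 ± 0.497, TCF3 at 40.4 ± 2.36, TCF12 at 5.85 ± 0.357 and TCF4 at 1.90 ± 0.0227 FPKM (SD, n = 3 each). No neighbours in that order overlapped between libraries. After treatment ID3 at 231 ± 8.63 and ID1 at 159 ± 4.56 FPKM remained first, followed by ID4 at 84.2 ± 1.5 and then by TCF3 at 49.1 ± 0.796 FPKM, which had changed places with ID2 at 26.2 ± 1.98 FPKM. TCF12 at 7.0 ± 0.0697 and TCF4 at 3.27 ± 0.115 FPKM stayed last, and again no neighbours overlapped.

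The low rank of TCF4 depends on the length used. The deposited FPKM divided each gene by its merged exons, which come to 27828 bases for TCF4 against 2572 bases for its median coding transcript. For TCF12 the lengths are 9446 and 3956 bases. Per kilobase of the median coding transcript, TCF4 (20.7 CPM per kb in DMSO, 35.6 after treatment) lay above TCF12 (14.1 and 16.8 CPM per kb), and in DMSO the order of the middle genes became ID2, TCF3 and ID4.

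Summed over the genes of each kind, ID mRNA was lower and E-protein mRNA higher after treatment. The ID sum was 717, 680.2 and 686 FPKM in DMSO and 505, 490.0 and 504 FPKM after treatment. The E-protein sum was 50.5, 46.4 and 47.5 FPKM in DMSO and 59.2, 58.7 and 60.2 FPKM after treatment. Neither sum overlapped between the groups. The ratio of the ID sum to the E-protein sum was 14.2, 14.7 and 14.4 in DMSO and 8.53, 8.35 and 8.38 after treatment, with means of 14.4 ± 0.243 and 8.42 ± 0.0968, so that the treated ratio was 0.583 of the DMSO ratio. ID mRNA remained in excess of E-protein mRNA in every library on this scale. Undivided by length, the CPM ratio went from 3.25 to 1.90. Per kilobase of the median coding transcript, a length chosen after the values were seen, it went from 9.27 ± 0.0301 to 4.96 ± 0.0211, so the size of the excess depends on the length used. These sums carry no test, and mRNA sums say nothing of the protein amounts.

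The make-up of the ID mRNA also changed. ID4 made up 7.62% ± 0.167 of the ID sum in DMSO and 16.8% ± 0.169 after treatment, while ID1 went from 37.2% ± 0.265 to 31.7% ± 0.911 and ID2 from 6.96% ± 0.258 to 5.24% ± 0.363. ID3 was the largest share in both, at 48.2% ± 0.197 and 46.2% ± 1.40, and its groups overlapped when the median coding length was used in place of merged exons. Without ID4, the ratio of ID1, ID2 and ID3 to the E-proteins went from 13.3 ± 0.237 to 7.0 ± 0.0726. Within the E-protein sum, TCF4 went from 3.96% ± 0.220 to 5.51% ± 0.192, and from 21.3% to 27.7% per median coding length. TCF3 at 83.9% and 82.7% and TCF12 at 12.2% and 11.8% overlapped between the groups in FPKM. Per median coding length they did not overlap, with TCF3 at 64.3% and 59.3% and TCF12 at 14.4% and 13.1%.

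**Figure D3:**
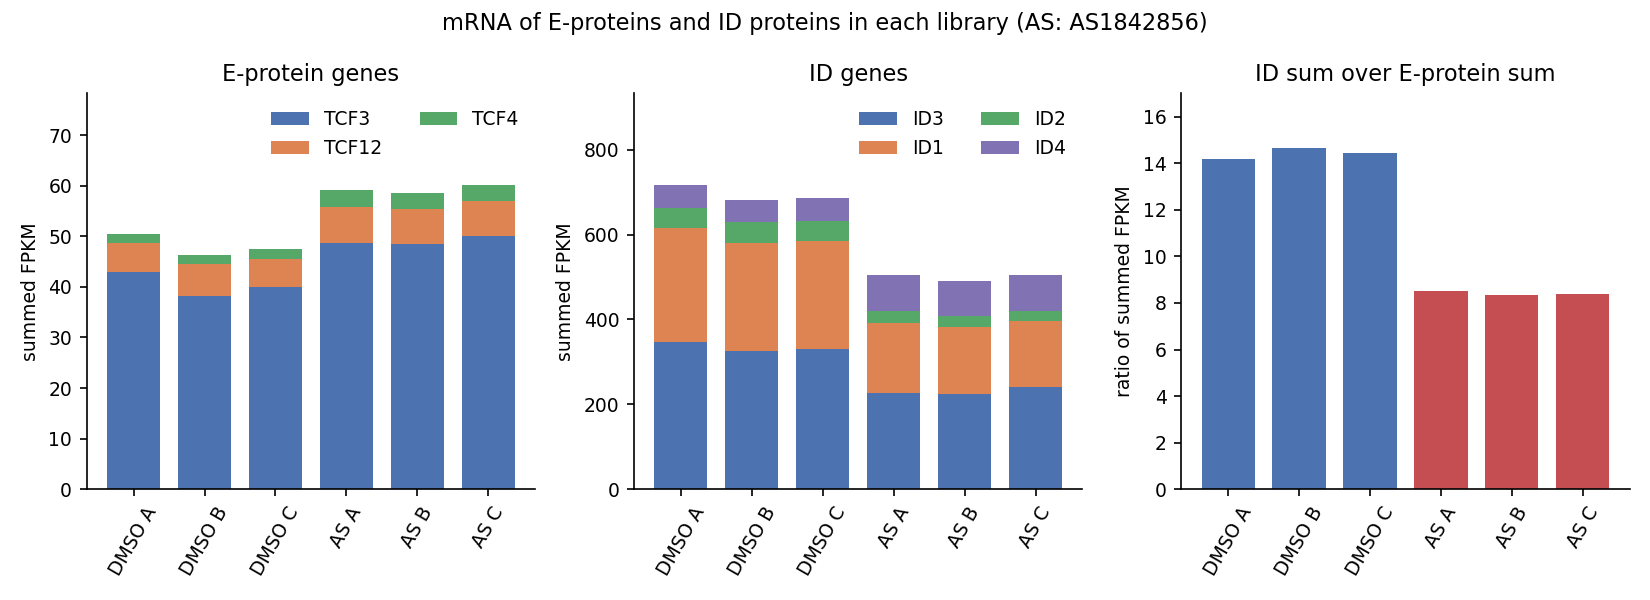
Summed FPKM of the E-protein genes (left) and ID genes (middle) in each library, stacked by gene, and the ratio of the sums (right), with A, B and C for the replicates and AS for AS1842856. The ratio is between 14.2 and 14.7 in the DMSO libraries and between 8.35 and 8.53 in the treated libraries, and the ID4 segment is larger after treatment.

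Other genes that work with the E-proteins were counted in lists drawn up by function, and the share called in each is given against the 56.0% called, 27.6% higher and 28.4% lower, over all genes tested. Class II bHLH partners are the tissue-restricted proteins with which E-proteins pair. Of 47 listed, 8 passed the filter, 2 rose, 3 fell and 3 did not pass the test (62.5% called), with a median log2 fold change of −0.28. MSC, a bHLH repressor, fell from 36.3 to 16.0 CPM (log2 fold change −1.19, adjusted p = 1.57e-34), although MSC-AS1 shares 414 exon bases with it and strand use is not given. MESP1, a factor of early mesoderm, fell from 1.95 to 1.15 CPM (−0.79, adjusted p = 0.0221), a call that was lost under DESeq2 (adjusted p = 0.114) and without DMSO replicate A, DMSO replicate C or AS1842856 replicate B (adjusted p = 0.149, 0.0555 and 0.0971). TWIST2, a mesenchymal factor, rose from 35.99 to 56.7 CPM (0.65, adjusted p = 2.67e-21), and SCX, a tendon factor, went from 1.57 to 2.06 CPM without passing the test (0.40, adjusted p = 0.222). TWIST1 and ATOH8, named after their values were seen, were the other called genes of this list, with log2 fold changes of 0.40 and −0.78.

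The HES and HEY bHLH-Orange repressors, which bind DNA without E-proteins and also pair with ID proteins, were called in a single direction. Of 13 listed, 7 were tested, 5 rose, none fell and 2 did not pass, with a median of 0.68. The share called higher was 71.4%, against 27.6% of all genes tested, over few genes and with no test of the list. Under DESeq2, 4 genes of the list were called. HES7, named after its values were seen, gave the median, and its libraries overlapped between the groups. BHLHE41, also called and named after its values were seen, shares 162 exon bases with SSPN. HEY1, a Notch target, rose from 3.30 to 11.4 CPM (1.78, adjusted p = 8.91e-26). BHLHE40, a repressor linked to the clock and hypoxia, rose from 49.997 to 120.8 CPM (1.27, adjusted p = 4.81e-71). HES1 was at 16.5 and 16.3 CPM (−0.02, adjusted p = 0.89), and HES4 had a log2 fold change of −0.37 (adjusted p = 0.126).

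Genes of the BMP-SMAD pathway, the best known inducer of ID genes, were called in both directions. Of 33 listed, 27 were tested, 14 rose, 9 fell and 4 did not pass (85.2% called), with a median of 0.29. The ligand gene BMP2 had 20, 7 and 9 counts in DMSO and 262, 310 and 228 after treatment, a mean of 0.617 and 14.03 CPM (4.43, adjusted p = 4.56e-60). GDF6, another ligand gene, had 0, 1 and 3 counts in DMSO and 48, 46 and 52 after treatment (adjusted p = 2.46e-18). CHRDL1, which encodes a secreted BMP antagonist, fell from 208 to 81.7 CPM (−1.35, adjusted p = 9.78e-88). SMURF2, a ubiquitin ligase for SMAD proteins, fell from 104.6 to 60.3 CPM (−0.79, adjusted p = 1.21e-38) and shares 167 exon bases with CEP95. Other antagonist genes, named after their values were seen, did not share a direction. FST rose from 4.26 to 39.2 CPM (3.21, adjusted p = 4.35e-85) and NOG from 6.36 to 13.5 CPM (1.07, adjusted p = 6.27e-15). TWSG1 fell from 92.1 to 75.3 CPM (−0.29, adjusted p = 1.99e-08) and BAMBI from 96.2 to 84.2 CPM (−0.19, adjusted p = 0.000131). Among further genes named after their values were seen, the inhibitory SMAD genes SMAD6 and SMAD7 moved in opposite directions (−0.65, adjusted p = 7.12e-27, and 0.79, adjusted p = 2.65e-37). The other ligand genes tested, also named after their values were seen, rose too. BMP4 went from 45.6 to 159.5 CPM (1.81, adjusted p = 4.67e-103), with BMP7 at 3.44 (adjusted p = 1.17e-40) and BMP6 at 1.22 (adjusted p = 0.0196). BMP6 had few counts, at 11, 8 and 2 in DMSO and 14, 26 and 11 after treatment. The calls of BMP4, BMP6 and BMP7 were not followed singly in the alternatives. Under DESeq2, 21 genes of the list were called in place of 23. The ligand genes named here, FST and NOG were thus higher in the libraries in which ID1, ID2 and ID3 were lower and ID4 was higher. CHRDL1, TWSG1 and BAMBI were lower in those same libraries. A link of any of these genes to the ID genes was not tested.

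Called E-protein cofactors had changes between −0.33 and 0.16 on the log2 scale. Of 13 listed, 9 were tested, 2 rose, 3 fell and 4 did not pass, with a median of −0.07. The share called, 55.6%, was close to the 56.0% of all genes tested. SKP2, a ubiquitin ligase subunit, fell from 106 to 84.8 CPM (−0.33, adjusted p = 5.14e-11), and HUWE1, a ubiquitin ligase, from 237.7 to 206 CPM (−0.21, adjusted p = 1.74e-06). The acetyltransferase gene CREBBP rose from 81.8 to 90.1 CPM (0.14, adjusted p = 0.00745), and LDB1, a bridging factor of bHLH complexes, from 61.3 to 68.6 CPM (0.16, adjusted p = 0.00624). Without DMSO replicate A 8 cofactors were called in place of 5. The call of CREBBP was lost without DMSO replicate C (adjusted p = 0.0764), and that of LDB1 without DMSO replicate B (adjusted p = 0.0612) or AS1842856 replicate C (adjusted p = 0.0994).

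Genes for proteins that stabilise or bind ID proteins were called in both directions. All 14 listed were tested, 4 rose, 8 fell and 2 did not pass (85.7% called), with a median of −0.21. USP1, a deubiquitinase that protects ID proteins, rose from 253.7 to 338.7 CPM (0.42, adjusted p = 1.45e-23). WDR48, its activating partner, fell from 35.4 to 20.1 CPM (−0.82, adjusted p = 5.14e-21), and it shares 13 exon bases with GORASP1, which has more counts. CAV1, the caveolin-1 gene, fell from 656.7 to 435 CPM (−0.59, adjusted p = 1.56e-43), and ELK3, an ETS-domain repressor, rose from 56.4 to 78.0 CPM (0.47, adjusted p = 7.14e-16).

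Of 12 known targets of E-proteins and ID proteins, 6 were tested, 3 rose, 2 fell and 1 did not pass (83.3% called), with a median of 0.20. THBS1, the thrombospondin-1 gene, known to be repressed by ID1, fell from 849.8 to 160.9 CPM (−2.40, adjusted p = 2.87e-154). EBF1, a B cell factor, fell from 3.46 to 1.45 CPM (−1.30, adjusted p = 2.38e-06). CDKN2B, the gene of the cell cycle inhibitor p15, rose from 41.6 to 62.9 CPM (0.59, adjusted p = 1.05e-19). RAG1, a recombinase gene of lymphocytes, was at 0.532 CPM in DMSO and 1.10 CPM after treatment (1.07, adjusted p = 0.0214). That call was lost under DESeq2 (adjusted p = 0.125) and in edgeR without a filter on low counts (adjusted p = 0.055). It was also lost without each of DMSO replicates A and C and AS1842856 replicates B and C (adjusted p between 0.0544 and 0.169). Without AS1842856 replicate B, 3 targets were called in place of 5.

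**Figure D4:**
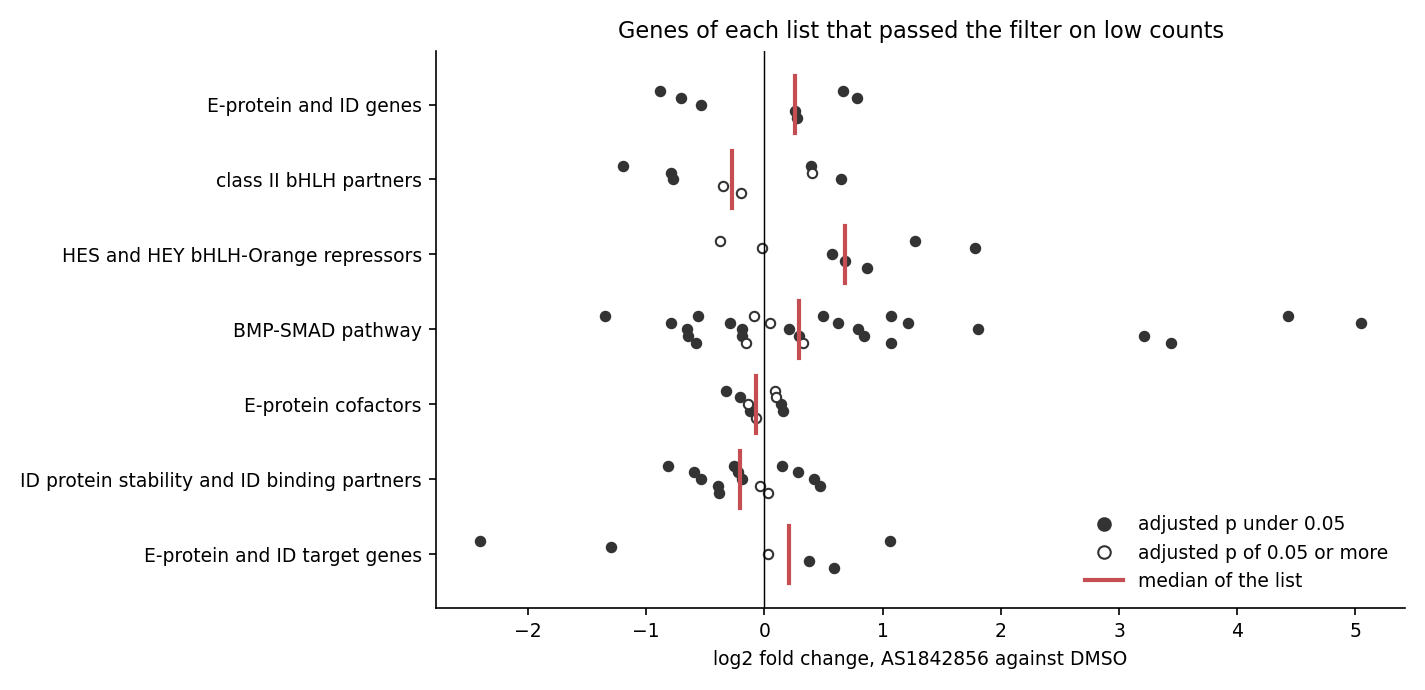
Log2 fold change (x axis, AS1842856 against DMSO) of the E-protein and ID genes and of each tested gene in the 6 lists, filled where the adjusted p is under 0.05 and open otherwise, with the median of each list in red. The medians run from −0.28 for class II bHLH partners to 0.68 for HES and HEY repressors.

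The genes most alike to each gene were found by Pearson's r of log2 CPM over the 6 libraries. These values are a description, since the difference between groups dominates them and many genes share it. LYSMD1 (r = 0.998) and RNF126 (0.997) were nearest to TCF3, EMB (0.9996) and CACNA1I (0.9994) to TCF4, and DIP2B (0.997) and DNMBP (0.996) to TCF12. SNRPE and CTDSP1 were nearest to ID1, DSTN and LINC01293 to ID2, FZD2 and LHX2 to ID3, and ALDH2 and EEF2 to ID4, all with r of 0.999 or more. The number of genes with r over 0.95 was 398 for TCF12 and 760 for TCF3 and ran from 1675 to 1966 for the other 5 genes.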

How the data were processed

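RNA-Seq libraries of BT549 cells (3 DMSO, 3 AS1842856) were grouped by the sample labels. The authors deposited raw counts per gene, with no normalization, and FPKM values per library, which are divided by library size and gene length. The submitters' processing notes name CASAVA and Bowtie 0.12.2 with GRCh38, and the study's methods name STAR. The counting tool, annotation and use of strand are not given in the sources used here. All 58735 gene identifiers matched GENCODE 29. FPKM lengths implied by the files were within 0.5% of merged exon lengths. The authors' own comparisons were not used.

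Groups were compared on the counts with edgeR 4.0.16 under R 4.3.3 (filterByExpr at a count of 10 and a total of 15, TMM, glmQLFit with robust estimation, glmQLFTest, Benjamini-Hochberg, threshold 0.05). Intervals are 95% intervals of the fit. They take in the spread between replicates as the fit estimates it. No interval of counting error alone is given, and reads carry no molecular identifiers. An exact permutation test of 3 against 3 cannot go below p = 0.1, so it was not used. Library totals of 15289500 to 22981832 counts went with a common BCV (spread between replicates beyond counting) of 0.0374. No replicate pair agreed within counting error (chi-square per degree of freedom 2.32 to 3.12). Alternatives used DESeq2 1.42.0, other scalings and filters, each library left out, a replicate block, and limma 3.58.1 on log2(FPKM + 1) or log2(FPKM + 0.1). Scripts were tested on simulated data.

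The genes and lists were chosen with earlier results of these data known. Of each list, the 2 tested genes with the highest and the 2 with the lowest log2 fold change were named, and for each E-protein or ID gene the 2 genes most correlated with it (log2 CPM, prior count 2). Genes overlapping a named gene are given where they could share reads. Promoter windows are those of RefSeq.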

Additional observations from a re-analysis of the deposited data

How the results depend on the processing

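All 7 E-protein and ID genes kept their direction and stayed under an adjusted p of 0.05 in the 15 alternatives, and 209 of 218 values compared with the main one kept their call or lay within 1.5 times of it. The fold change of TCF4 was 0.56 with log2(FPKM + 1) and 0.75 with log2(FPKM + 0.1), since the pseudocount is large beside its FPKM. The largest adjusted p was 0.0147, for TCF12 by limma on log2(FPKM + 1) without a filter. Genes called over all ranged from 6453 to 8030. With the replicate letter as a block, 7862 genes were called against 8029, and the calls of the 7 genes were the same. Deviations of same-lettered libraries were nearly unrelated (correlations 0.042, −0.012 and −0.00332). With 3 libraries in a group, these values cannot show how the cultures were set up. The main fit used no A, B or C pairing.

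Called genes among the targets were 3 in place of 5 under DESeq2, under a mean of at least 50 counts, and under limma on log2(FPKM + 1), on log2(FPKM + 0.1) and on log2(FPKM + 1) without a filter, and 3 to 5 when a library was left out, with 3 without AS1842856 replicate B. Called E-protein cofactors were 2 in place of 5 under limma on log2(FPKM + 1) without a filter, and 4 to 8 when a library was left out, with 8 without DMSO replicate A. Among 39 other named genes, 537 of 568 alternative values kept direction and call, 27 were no longer called (MESP1, RAG1, CREBBP, LDB1, FOXA1, HUWE1 and EBF1, the last 2 only under limma without a filter), and 4 changed sign. Those were TCF7L2, from −0.068 (without DMSO replicate B) to 0.046 (without DMSO replicate C), and HES1, from −0.087 to 0.060 without the same libraries, which also turned without AS1842856 replicate C, and neither was called. The treated ratio of ID to E-protein mRNA was 0.535 of the DMSO ratio per median coding length, an alternative chosen after seeing the data, against 0.583 in FPKM. Reads shared between overlapping genes, splice forms and protein amounts were not measured.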
